A study of Xenopus laevis with 9 samples.

Results

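The genes of axon guidance, with the Eph receptors and ephrins, were followed across 3 tissues dissected from embryos of Xenopus laevis, the African clawed frog. Members were the probe sets of the array with 1 annotated gene symbol whose name, in lower case and without the .L or .S ending of the homeologous copies, began with a family name (Eph receptor, ephrin, semaphorin classes 3 to 7, plexin, neuropilin, Slit, Robo, netrin, UNC5, DCC, neogenin, RGM, NCAM, L1 family, contactin, rtn4, crmp, flrt or lrrtm). The rule found 50 of the 9304 probe sets with 1 symbol, for 40 symbols of 35 genes, on an array of 15611 probe sets. They were 8 for Eph receptors, 6 for ephrins, 5 for semaphorins, 3 for plexins and neuropilins, 7 for Slits and Robo receptors, 11 for netrins, DCC, neogenin, UNC5 and RGM, 7 for NCAM, L1 and contactins, and 3 others, rtn4.L, rtn4.S and rtn4ip1.L. The last encodes a mitochondrial protein named for binding rtn4 and is no guidance gene. No probe set matched the crmp, flrt or lrrtm names.

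Axons find their way by reading cues on cells and in the matrix around them. The cues belong to a few families: ephrins and their Eph receptor tyrosine kinases, semaphorins with plexin and neuropilin receptors, Slits with Robo receptors, netrins with DCC, neogenin and UNC5 receptors, repulsive guidance molecules (RGM), and adhesion molecules of the immunoglobulin class such as NCAM and L1. Many of them also act outside the nervous system, where Eph receptors and ephrins keep neighbouring cell groups apart and Slits, semaphorins and netrins steer migrating neural crest and vessel cells.

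Embryos were at stage 26, a tailbud stage, and RNA of 75 to 100 of them was pooled in each sample. There were 3 samples of dissected primary mouth (numbered 1a, 2 and 3), the region at the front of the head that becomes the first mouth opening, 3 of anterior dorsal tissue, and 3 of ventral tissue with the cement gland, a mucus-secreting organ. No treatment or genotype is given in the labels, and no label tells whether the samples of a tissue come from different clutches, so the p-values reflect the spread among these samples, which may be technical. Each array gave 1 MAS5 signal per probe set on a linear scale, and array medians were 51.1 to 59.6 signal units.

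The labelled tissues were set against marker lists. Anterior dorsal arrays were high in neural markers, with summed signals over 33 probe sets of neural progenitor genes of 3963 to 5542 in primary mouth, 11041 to 11618 in the anterior dorsal and 2348 to 3127 in ventral tissue. The cement gland genes ag1.L and agr2.L averaged 2793 and 1165 in primary mouth, 1522 and 292 in the anterior dorsal and 7317 and 3204 in ventral tissue, so none of the 3 pieces was free of that signal. On the whole cement gland list 1 probe set was higher and 5 lower in primary mouth than in ventral tissue (4.42% and 10.1% of all probe sets were). In the anterior dorsal 2 were higher and 6 lower than in ventral tissue (10.5% and 14.1% of all). The 2 higher ones were of otx2, also a brain gene, with means of otx2.L of 191 in primary mouth, 435 in the anterior dorsal and 96.4 in ventral tissue. Control probe sets divided the arrays into 4 with a high 3' to 5' ratio of beta-actin (5.48 to 11.2, namely primary mouth 1a and 2, anterior dorsal 1 and ventral 1) and 5 with a low one (1.46 to 2.03). These sets are called batches here, although the labels name none. Whether they differ in RNA quality, in labelling or in date was not tested. Primary mouth has more of its arrays in the high-ratio batch than the other tissues, so its comparisons partly mix tissue with batch. Each tissue has arrays in both, but only 1 of anterior dorsal and of ventral tissue in the high-ratio batch and only 1 of primary mouth in the low-ratio batch, so fits within a batch assume that a lone array varies like the others.

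Of the 50 members, 29 passed the filter on low signals, which asked for a signal over the 40th percentile (30.9 to 35.8, set array by array) on at least 3 arrays. Among these 29, 11 probe sets for 9 symbols differed in at least 1 of the 3 pairwise comparisons, 37.9%, where 29.3% of all 10011 probe sets tested did so. The neural adhesion molecule ncam1, the repellent ligand slit1 and the repulsive guidance molecule rgma carried most of the calls, and each was highest in the anterior dorsal and lowest in ventral tissue. Among the 10 tested Eph and ephrin probe sets 1 was called, epha2.L, and of the other 19 there were 10. With the batch as a term efna4.L and efnb2.S were called too, and plxna1.L among the others. Calls come from limma fitted to all probe sets, with Benjamini-Hochberg adjusted p under 0.05. Log2 differences are of log2(signal + 16), so changes of dim probe sets are understated. In pooled tissue, fewer cells of a type and less RNA per cell cannot be told apart.

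**Figure D1:**
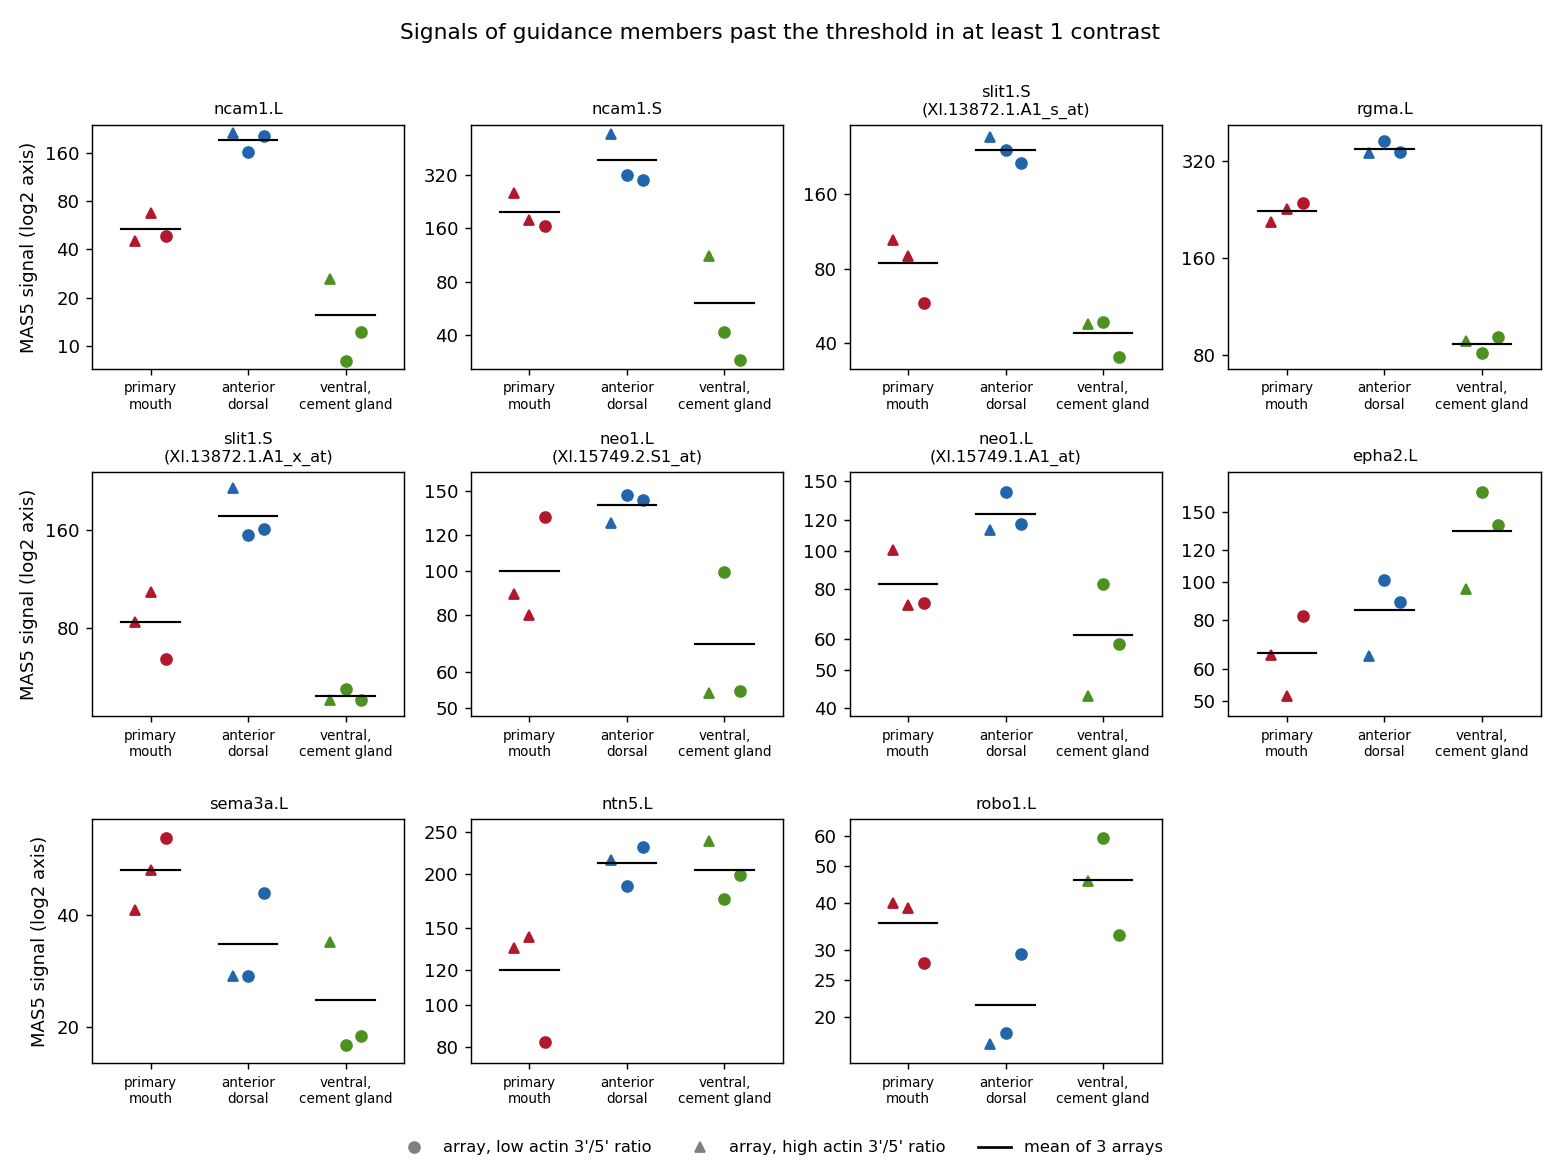
Signals of the 11 member probe sets past the threshold in at least 1 comparison, 1 panel each, on log2 axes in MAS5 signal units. Points are arrays (3 per tissue, triangles for the 4 arrays with the high actin ratio) and bars are means. In the ncam1.L, slit1.S and rgma.L panels the anterior dorsal arrays all lie above those of both other tissues.

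Among the secreted ligands, slit1 gave the most calls. Slit1 is a secreted repellent of axons and migrating cells that binds Robo receptors. On 1 of its tested probe sets slit1.S (gene ID 380270) read 104, 90.3 and 58.5 in primary mouth arrays 1a, 2 and 3, 272, 242 and 214 in the anterior dorsal arrays 1 to 3, and 48.1, 48.96 and 35.4 in ventral arrays 1 to 3. No tissue overlapped another, with anterior dorsal on top and ventral at the bottom. The log2 difference of primary mouth from anterior dorsal tissue was -1.39 ± 0.20 (SE, limma adjusted p = 0.000772) and that of anterior dorsal from ventral tissue 2.11 ± 0.20 (adjusted p = 1.18e-05). Primary mouth exceeded ventral tissue by 0.72 ± 0.20 (adjusted p = 0.0337).

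The call of slit1.S between primary mouth and ventral tissue was not firm. It was lost without primary mouth 1a (adjusted p = 0.13) or 2 (0.102), anterior dorsal 2 (0.0531), or ventral 1 (0.0514), 2 (0.0681) or 3 (0.139), and within the high-ratio and the low-ratio batch alone (0.115 and 0.331). A second probe set from the same expressed sequence read 83.6, 103 and 64.7 in primary mouth, 215, 155 and 161 in the anterior dorsal and 48.4, 52.1 and 48.4 in ventral arrays. Its order was the same, with differences of -0.95 (adjusted p = 0.00588) and 1.54 (adjusted p = 7.71e-05), while 0.59 between primary mouth and ventral tissue did not pass (adjusted p = 0.0582). With the batch as a term that difference passed on both probe sets (0.61 and 0.50, limma adjusted p = 0.0155 and 0.037). On the second it also passed under quantile normalization (0.0344), with a pseudocount of 4 (0.048), with the replicate number as a block (0.0267) and without primary mouth 3 (0.0228). The names of both mark probes that can match other transcripts, and being made from 1 sequence they are not independent. The remaining slit1.S probe set lay below the filter, with means of 10.4, 16.9 and 2.01 in primary mouth, anterior dorsal and ventral tissue.

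The related ligand slit2.S (gene ID 394404) passed in no comparison. It read 147, 111 and 98.9 in primary mouth, 96.5, 91.4 and 72.6 in the anterior dorsal and 108, 86.2 and 83.5 in ventral arrays. The primary mouth arrays lay above all anterior dorsal ones and overlapped the ventral ones, and the largest difference was 0.38 ± 0.19 against anterior dorsal tissue (adjusted p = 0.252).

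The Robo receptors, which bind Slits, gave 1 call. The signal of robo1.L (gene ID 399392) was 39.99, 38.8 and 27.7 in primary mouth, 16.98, 18.2 and 29.4 in the anterior dorsal and 45.7, 59.2 and 33.00 in ventral arrays. It was the one member lower in the anterior dorsal than in ventral tissue, by -0.72 ± 0.20 on the log2 scale (limma adjusted p = 0.0206). Primary mouth lay between and overlapped both, with 0.46 against anterior dorsal tissue (adjusted p = 0.197). This call ended without anterior dorsal 1 (adjusted p = 0.0725) or 2 (0.0807) or ventral 1 (0.0519) or 2 (0.094) and within the high-ratio and low-ratio batches (0.13 and 0.0931), and these signals are close to the filter. The tested probe set of robo3.S, the receptor known in mouse for letting axons cross the midline, averaged 72.8, 97.5 and 101 in the 3 tissues and passed nowhere. A second robo3.S probe set lay below the filter.

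Repulsive guidance molecule A, rgma.L (gene ID 380244), is a membrane-anchored protein that binds neogenin and also acts as a co-receptor of BMP ligands. Its arrays varied little within a tissue and were well apart between tissues. They read 206, 227 and 237 in primary mouth, 339, 369 and 341 in the anterior dorsal and 88.3, 80.95 and 90.5 in ventral tissue, so the groups did not overlap. Primary mouth was 1.22 ± 0.14 above ventral tissue (adjusted p = 0.000148), a ratio of means of 2.58, and anterior dorsal tissue 1.83 ± 0.14 above it (adjusted p = 2.42e-06). Both calls held without each array and under every other alternative run, the within-batch fits with their lone arrays among them. Primary mouth was below anterior dorsal tissue by -0.61 ± 0.14 (adjusted p = 0.0184), a call that was lost without primary mouth 1a (0.0663) or anterior dorsal 2 (0.0929) or 3 (0.069) and within either batch alone (0.382 and 0.111).

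Neogenin, neo1.L (gene ID 100381051), the receptor shared by RGM proteins and netrins, had 2 probe sets, and both were higher in the anterior dorsal than in ventral tissue. On the first the signals were 100.3, 73.00 and 74.00 in primary mouth, 113, 141 and 117 in the anterior dorsal and 42.9, 82.4 and 58.1 in ventral arrays. The second read 88.9, 80.1 and 131 in primary mouth, 128, 147 and 143 in the anterior dorsal and 53.8, 99.2 and 54.5 in ventral arrays. On both, every anterior dorsal array lay above every ventral one, and primary mouth overlapped ventral tissue. The log2 differences between anterior dorsal and ventral tissue were 0.88 ± 0.21 and 0.90 ± 0.23 (adjusted p = 0.00791 and 0.0116), and the second call was lost without ventral 3 (0.0532) and within the high-ratio batch (0.0616). Neither comparison of primary mouth passed on either probe set (adjusted p = 0.167 and 0.282 against anterior dorsal, 0.27 and 0.212 against ventral tissue). With the batch as a term the second probe set was higher in primary mouth than in ventral tissue (0.58, limma adjusted p = 0.0363). The first did not pass there (0.43, adjusted p = 0.129).

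The netrin-family gene ntn5.L (gene ID 100127305) was the one member lower in primary mouth than in either other tissue. Its signals were 135, 143 and 82.3 in primary mouth, 215, 188 and 231 in the anterior dorsal and 239, 176 and 199 in ventral arrays. All 3 primary mouth arrays were below all the others, and array 3 was the lowest. The differences were -0.77 ± 0.21 against anterior dorsal (adjusted p = 0.0356) and -0.72 ± 0.21 against ventral tissue (adjusted p = 0.0365).

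These ntn5.L calls were near the threshold. Against anterior dorsal tissue the call was lost without primary mouth 1a (adjusted p = 0.0509) or 3 (0.0785), anterior dorsal 1 (0.0735), 2 (0.0712) or 3 (0.144), or ventral 2 (0.0512) or 3 (0.0501). Against ventral tissue it was lost without primary mouth 1a (0.0511) or 3 (0.0828), anterior dorsal 2 (0.0517) or 3 (0.0539), or ventral 1 (0.106), 2 (0.0559) or 3 (0.0938). Adding a batch term made the differences -0.88 and -0.83 (adjusted p = 0.00154 and 0.0018). Both calls were lost within the high-ratio batch (0.443 and 0.16) and with only the 2 tissues in the fit (0.0623 and 0.071), and the call against anterior dorsal tissue was lost under quantile normalization (0.0509).

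The classical netrin gene ntn1.L, its receptor genes dcc.L and dcc.S and the receptor gene unc5b.L lay below the filter on all 7 of their probe sets, whose signals ran from 0.363 to 33.1. For these genes no comparison was made, and a low signal was not read as absence. The brightest dcc.L values were 28.5 and 24.1 in the anterior dorsal arrays 1 and 2, against 6.90 in array 3, 9.48 to 16.2 in primary mouth and 4.58 to 8.60 in ventral arrays. The homeolog dcc.S had another order on both of its probe sets. Its means were 6.42 and 3.43 in primary mouth, 1.94 and 0.790 in the anterior dorsal and 2.49 and 1.31 in ventral tissue.

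Of the semaphorins, which are secreted or membrane-bound and mostly repel, sema3a.L changed. Its protein repels axons and neural crest through neuropilin-1 and class A plexins. The signals of sema3a.L (gene ID 378645) were 41.3, 53.2 and 64.8 in primary mouth, 27.4, 27.4 and 45.9 in the anterior dorsal and 33.99, 17.9 and 18.9 in ventral arrays. Primary mouth was highest by its mean, above every ventral array and overlapping anterior dorsal tissue. It exceeded ventral tissue by 0.81 ± 0.21 (adjusted p = 0.024), and the 0.49 ± 0.21 against anterior dorsal tissue did not pass (adjusted p = 0.202). The ventral values of sema3a.L lie below the filter's percentile on every array, so the difference from them rests on dim signals. The call was lost without primary mouth 2 (0.0625) or 3 (0.058) or ventral 2 (0.105) or 3 (0.0984), and within the high-ratio batch (0.695).

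The membrane semaphorin sema6d.L read 78.8, 74.5 and 79.97 in primary mouth, 107, 106 and 112 in the anterior dorsal and 79.7, 77.5 and 90.1 in ventral arrays. The anterior dorsal arrays lay above all 6 others, but by a small step, and neither comparison passed (-0.41 for primary mouth against anterior dorsal tissue, adjusted p = 0.112, and 0.34 for anterior dorsal against ventral tissue, adjusted p = 0.12). The third tested semaphorin, sema3fl.S, averaged 34.2, 32.7 and 30.6 in primary mouth, anterior dorsal and ventral tissue. The genes sema3c.S and sema4c.L lay below the filter.

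Semaphorin receptors did not pass. The plexin gene plxna1.L averaged 105 ± 8.47 (SD, n = 3) in primary mouth, 85.6 ± 14.4 in the anterior dorsal and 73.2 ± 12.99 in ventral tissue. Its primary mouth arrays lay above all ventral ones, with a difference of 0.45 ± 0.17 (adjusted p = 0.11, and 0.0289 with the batch as a term). The signals of plxnb2.S averaged 184, 193 and 202 in the same order of tissues. For both plexins, limma called 0 of 6 comparisons in either direction. Of all probe sets, 4.42% to 14.1% passed in each single direction of a comparison, so the share for both directions together is larger. At an unadjusted p under 0.05, plxna1.L was higher in primary mouth than in ventral tissue, as were 12.2% of all probe sets.

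Neuropilin-1, nrp1.L (gene ID 397804), lay below the filter, yet its tissues stood apart. It read 14.3, 22.5 and 11.4 in primary mouth, 3.58, 7.71 and 3.35 in the anterior dorsal and 25.8, 30.6 and 30.6 in ventral arrays, with no overlap between any pair of tissues. When every probe set was tested, with no filter on low signals, it was lower in the anterior dorsal than in ventral tissue by 1.11 ± 0.16 on the log2 scale (a difference of -1.11, limma adjusted p = 0.000419) and higher in primary mouth than in the anterior dorsal tissue by 0.61 ± 0.16 (adjusted p = 0.0447). All these signals are below the 40th percentile of their arrays, and detection calls were not analysed here. Neuropilin-1 is made by vessel endothelium as well as by axons. Of 14 tested probe sets of endothelium and blood markers, 6 were higher and 0 lower in primary mouth than in the anterior dorsal tissue (4.68% and 4.87% of all were). Against ventral tissue 2 were higher and 7 lower in primary mouth (4.42% and 10.1%), and 0 higher and 11 lower in the anterior dorsal (10.5% and 14.1%). The sums of muscle and heart markers and of cement gland markers also had the tissue order of nrp1.L. Those of muscle and heart were 1044 to 1249 in primary mouth, 604 to 627 in the anterior dorsal and 3358 to 3739 in ventral arrays. The cement gland sums were 5708 to 9761, 3450 to 4704 and 19316 to 25587, although otx2 in that list had another order. The part of these markers in the nrp1.L difference was not tested.

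**Figure D2:**
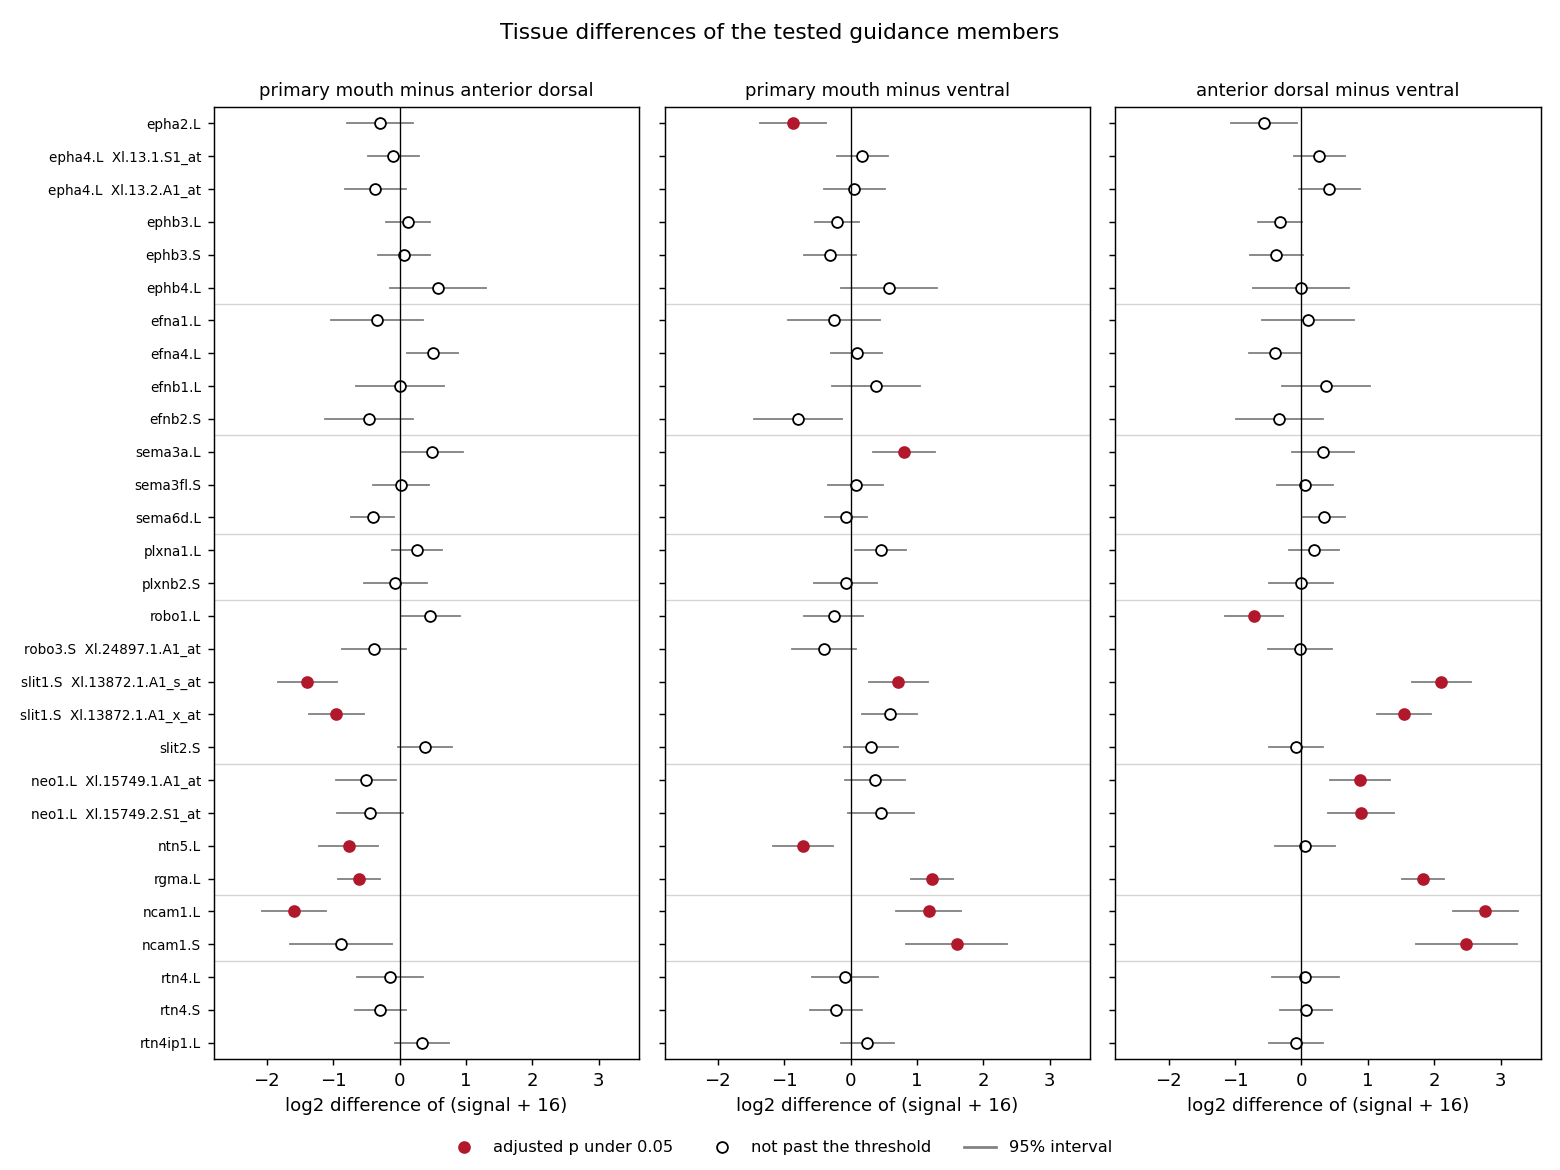
Log2 differences of (signal + 16) for the 29 tested member probe sets in the 3 comparisons, grouped by family and named by symbol (with the probe set where a gene has several), with 95% intervals. Filled points passed an adjusted p of 0.05. The filled points are 5, 7 and 8 in the left, middle and right panels, and epha2.L is the only one among the Eph receptors and ephrins at the top.

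Among all members ncam1 showed the largest log2 differences. NCAM is a homophilic adhesion molecule of neural cells and a classical marker of the neural plate in frogs. The signals of ncam1.L (gene ID 397762) were 45.2, 67.9 and 48.7 in primary mouth, 213, 162 and 206 in the anterior dorsal and 26.1, 8.04 and 12.2 in ventral arrays. The 3 tissues did not overlap. Primary mouth was -1.59 ± 0.22 from anterior dorsal tissue (adjusted p = 0.000595) and 1.18 ± 0.22 from ventral tissue (adjusted p = 0.00358), and anterior dorsal was 2.77 ± 0.22 above ventral tissue (adjusted p = 3.03e-06), a ratio of means of 12.54. The ventral values lie below the filter's percentile on every array, so the ratio rests on dim signals.

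The homeolog ncam1.S (gene ID 397761) had the same order. Its signals were 251, 177 and 164 in primary mouth, 542, 317 and 298 in the anterior dorsal and 112, 41.8 and 29.05 in ventral arrays. Within each tissue the highest array was one with the high actin ratio. Primary mouth exceeded ventral tissue by 1.60 ± 0.35 (adjusted p = 0.00842) and anterior dorsal exceeded it by 2.48 ± 0.35 (adjusted p = 0.000228). The difference of primary mouth from anterior dorsal tissue was -0.88 ± 0.35 and did not pass (adjusted p = 0.152). With the batch as a term it was -1.16 and passed (adjusted p = 0.00136). Within the high-ratio batch alone, the calls of both copies between primary mouth and ventral tissue were lost (adjusted p = 0.184 for ncam1.L and 0.0785 for ncam1.S). The probe sets of l1cam.S, cntn1.L, cntn1.S and cntn4.S, neuronal adhesion molecules of the L1 and contactin families, all lay below the filter, with signals of 0.359 to 8.45.

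Neural markers were set beside these members. Of 24 tested probe sets of neural progenitor genes 0 were higher and 18 lower in primary mouth than in the anterior dorsal tissue (4.68% and 4.87% of all were). Against ventral tissue 10 were higher and 1 lower in primary mouth (4.42% and 10.1%), and 21 higher and 0 lower in the anterior dorsal (10.5% and 14.1%). Neuron markers were lower in primary mouth than in the anterior dorsal tissue on 17 of 22 probe sets (4.87% of all were) and higher on 0 (4.68%). Against ventral tissue 5 were higher and 3 lower in primary mouth (4.42% and 10.1%). Between anterior dorsal and ventral tissue 15 neuron markers were higher and 2 lower (10.5% and 14.1% of all were). The filter asks for 3 arrays, so a probe set of either list can pass it by the anterior dorsal arrays alone. For example, snap25.L averaged 12.6 in primary mouth, 87.6 in the anterior dorsal and 7.52 in ventral tissue, and the progenitor gene emx2.L 9.35, 164.5 and 10.1. For such probe sets the filter largely set the direction. The summed signal of 35 neuron marker probe sets was 1376 to 1511 in primary mouth, 6294 to 6661 in the anterior dorsal and 1849 to 2237 in ventral arrays. The 3 probe sets called lower in primary mouth than in ventral tissue were those of sncg.S, syt1.L and rab3a.L. These 3 were left out after their values were seen. The sum was then 986 to 1225 in primary mouth, 5557 to 5785 in the anterior dorsal and 645 to 800.0 in ventral arrays. Taking out probe sets that were lower in primary mouth raises it against ventral tissue by construction, so no conclusion was drawn from that order. The median difference of the tested neuron markers between primary mouth and ventral tissue was 0.27. The defining neuronal gene elavl3.L averaged 9.195 in primary mouth, 87.2 in the anterior dorsal and 6.94 in ventral tissue, and tubb3.L 26.9, 209 and 45.5, both under the filter's level or close to it outside anterior dorsal tissue. The progenitor gene sox2.L averaged, on the brighter of its probe sets, 155 in primary mouth, 380.4 in the anterior dorsal and 66.4 in ventral tissue, the same order as ncam1, rgma and slit1. The part of either cell type in the members' differences was not tested.

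**Figure D3:**
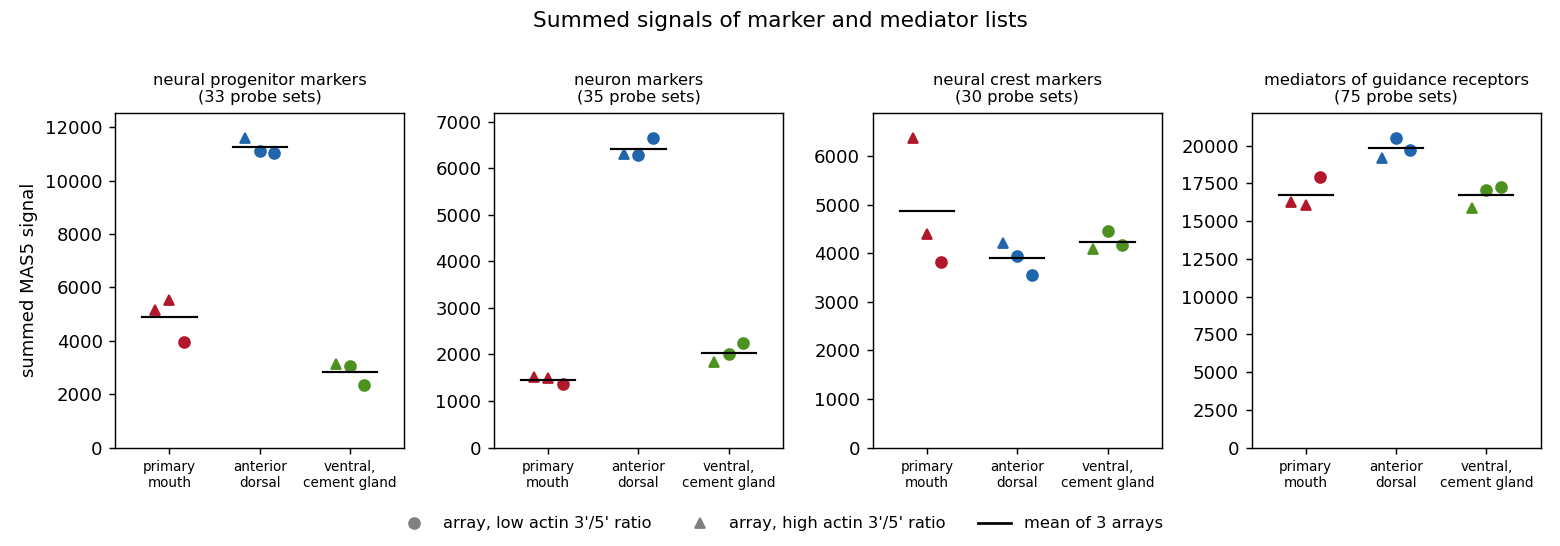
Summed MAS5 signals per array of all annotated probe sets of 4 gene lists, on linear axes from 0, with triangles for the 4 arrays of high actin ratio and bars for tissue means. Progenitor markers run from ventral through primary mouth to anterior dorsal tissue. The neuron marker sums are 1376 to 1511 in primary mouth, 6294 to 6661 in the anterior dorsal and 1849 to 2237 in ventral arrays.

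Eph receptors and ephrins gave 1 call in 30 comparisons among the 3 tissues. Of all probe sets, 4.68% were higher and 4.87% lower in primary mouth than in the anterior dorsal tissue. Against ventral tissue 4.42% were higher and 10.1% lower in primary mouth, and 10.5% and 14.1% in the anterior dorsal. The 30 comparisons count calls of either direction, so both shares of a comparison apply to them together. By probe set, 1 of the 10 tested was called in at least 1 comparison, where 29.3% of all were. With the batch as a term epha2.L, efna4.L and efnb2.S were each called in at least 1 comparison. Larger shares of all probe sets passed in that fit too, 7.90% to 19.1% in each single direction of a comparison. Whether this family differs from those shares was not tested. The 1 call without a batch term was epha2.L (gene ID 394370), a receptor of ephrin-A ligands known from epithelia. It was lower in primary mouth than in ventral tissue, as were 10.1% of all probe sets. It read 65.2, 51.3 and 81.9 in primary mouth, 65.03, 101 and 89.1 in the anterior dorsal and 96.1, 169 and 139 in ventral arrays. Primary mouth was below ventral tissue by -0.86 ± 0.23 (limma adjusted p = 0.0236) with no overlap, and anterior dorsal tissue lay between (-0.56 against ventral tissue, adjusted p = 0.0952). With the batch as a term this difference was -0.70 (adjusted p = 0.00414) and that of the anterior dorsal from ventral tissue -0.56 (adjusted p = 0.00761), and epha2.L was itself lower in the high-ratio batch (-0.48 ± 0.13, adjusted p = 0.0143). The first call was lost without primary mouth 1a (0.0667), without primary mouth 2 (0.091), and without ventral 2 (0.109) or 3 (0.0832), and within the high-ratio batch (0.357).

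The 29 comparisons of this system that did not pass without a batch term had log2 differences of -0.79 to 0.58. In 21 of them the 95% interval lay within 1 log2 unit of 0. The intervals reached -1.45 and 1.31 at their widest, so larger differences remain possible for the more variable genes. The receptor gene epha4.L had tissue means of 48.5, 52.6 and 41.3 and of 132, 173 and 128 on its 2 probe sets, in primary mouth, anterior dorsal and ventral tissue. Its differences of primary mouth from anterior dorsal tissue were -0.093 and -0.36. Both homeologs of the receptor gene ephb3 passed nowhere either, with means of 79.04, 71.1 and 93.4 for ephb3.L and 109.9, 105 and 142 for ephb3.S in the same order.

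The receptor gene ephb4.L, whose partner ephrin-B2 marks arteries in mouse as EphB4 marks veins, gave no call, although primary mouth had its highest array under each replicate number. It read 572, 525 and 293 in primary mouth, 379.5, 282 and 231 in the anterior dorsal and 479, 288 and 179.9 in ventral arrays. All 4 arrays of the high-ratio batch (379.5 to 572) lay above all 5 of the low-ratio batch (179.9 to 293), whatever the tissue. The batch difference was 0.81 ± 0.15 on the log2 scale (limma adjusted p = 0.00199, with tissue in the model), against 0.58 ± 0.33 for primary mouth over anterior dorsal tissue (adjusted p = 0.33). The arrays bore out a pairing by replicate number only in part. With that number as a block, ephb4.L was higher in primary mouth than in the anterior dorsal tissue (0.58 ± 0.16, limma adjusted p = 0.0295) and than in ventral tissue (0.58 ± 0.16, adjusted p = 0.0232).

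Ephrin ligands passed nowhere. The membrane-spanning ephrin gene efnb1.L read 99.6, 143 and 50.02 in primary mouth, 122, 80.1 and 73.8 in the anterior dorsal and 87.5, 66.1 and 48.3 in ventral arrays, again higher in each array of the high-ratio batch than in any of the other (batch difference 0.705 ± 0.15, adjusted p = 0.00513). The ligand gene efnb2.S went the other way, with 27.4, 18.07 and 41.9 in primary mouth, 29.9, 65.8 and 42.96 in the anterior dorsal and 32.2, 76.4 and 82.98 in ventral arrays, and a batch difference of -0.72 ± 0.15 (adjusted p = 0.00414). Primary mouth had the lowest mean of efnb2.S, -0.79 against ventral tissue, which did not pass (adjusted p = 0.111) and passed with the batch as a term (-0.55, adjusted p = 0.0431).

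The anchored ephrin gene efna4.L read 101, 85.1 and 95.2 in primary mouth, 49.2, 68.98 and 68.1 in the anterior dorsal and 73.6, 88.7 and 99.2 in ventral arrays. Anterior dorsal arrays lay below all others, and the differences were 0.50 ± 0.17 for primary mouth over anterior dorsal tissue (adjusted p = 0.103) and -0.40 ± 0.17 for anterior dorsal against ventral tissue (adjusted p = 0.118). Both passed with the batch as a term (adjusted p = 0.0181 and 0.0407). The ligand gene efna1.L averaged 35.02, 51.5 and 48.2 in the 3 tissues with overlapping arrays. Limma called 0 of 12 ephrin comparisons in either direction. Of all probe sets, 4.42% to 14.1% passed in each single direction of a comparison, so the share for both directions together is larger. At an unadjusted p under 0.05 there were 3, of which 1 was higher in primary mouth than in the anterior dorsal tissue (11.3% of all probe sets were), 1 lower in primary mouth than in ventral tissue (15.6%) and 1 lower in the anterior dorsal than in ventral tissue (18.4%). The genes efna3.L, efnb3.L and epha8.L lay below the filter.

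**Figure D4:**
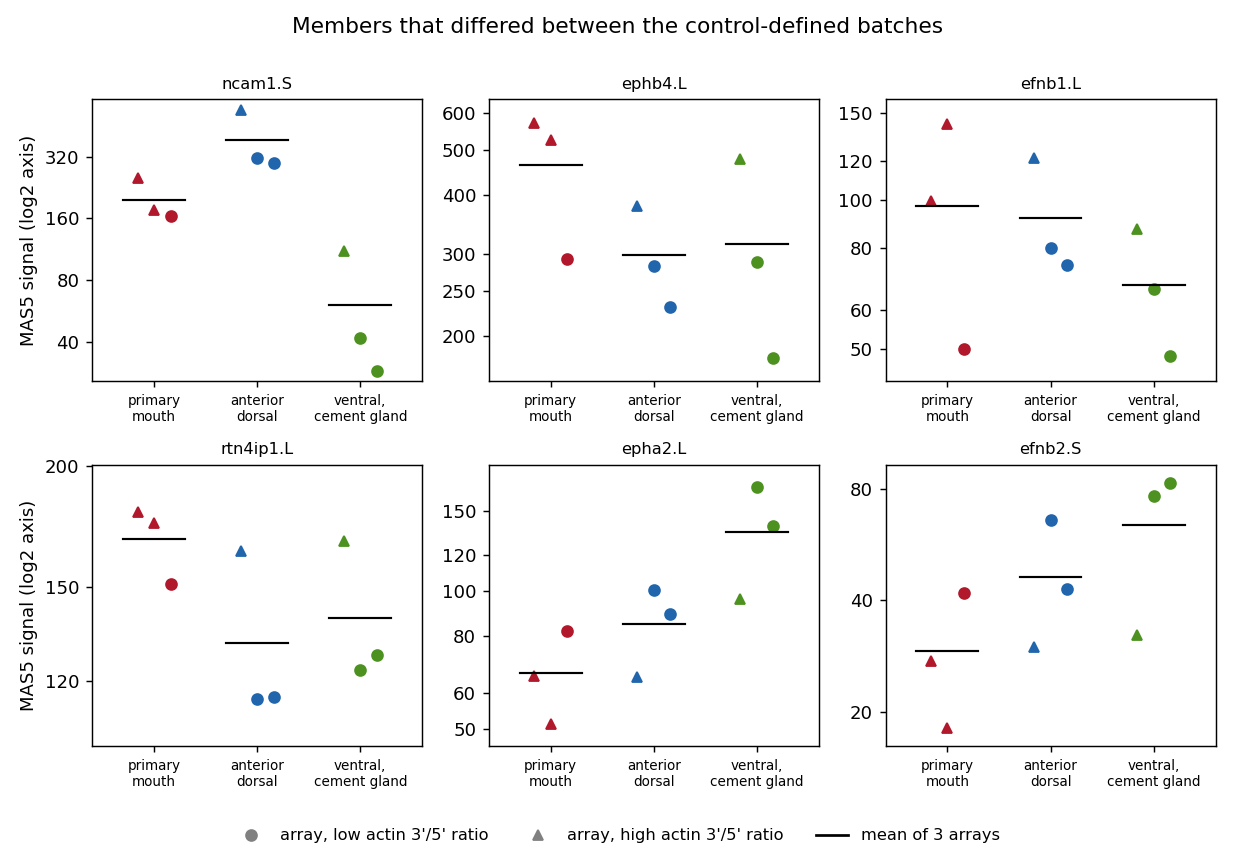
Signals of the 6 members that differed between the batches, 1 panel each, on log2 axes in MAS5 signal units, with triangles for the 4 arrays of high actin ratio and circles for the 5 of low ratio. In the ephb4.L, efnb1.L and rtn4ip1.L panels every triangle lies above every circle, and in the efnb2.S panel every triangle lies below.

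In all, 6 members differed between the batches at an adjusted p under 0.05, 4 higher and 2 lower in the high-ratio batch, where 25.6% of all probe sets tested did so. The reticulon gene rtn4, whose product Nogo hinders axon regrowth in mammals, passed in no comparison in either homeolog. The means of rtn4.L were 388, 422 and 412 and those of rtn4.S 268, 331 and 315 in primary mouth, anterior dorsal and ventral tissue. For rtn4ip1.L the means were 168, 131 and 139.

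The members called in each comparison were these. In primary mouth against anterior dorsal tissue, 0 of 29 members were higher (4.68% of all probe sets were) and 5 were lower (4.87%), namely ncam1.L, both slit1.S probe sets, rgma.L and ntn5.L. At an unadjusted p under 0.05, 3 were higher (11.3% of all probe sets were) and 8 lower (11.3%). The median log2 difference of the 29 members was -0.29, and that of all probe sets -0.0087. With the batch as a term 1 was higher and 6 lower (7.90% and 8.11% of all were). Within the high-ratio batch 0 and 4 were (2.35% and 2.79% of all), and within the low-ratio batch 0 and 4 (3.61% and 4.45%). The count of lower members was 3 without primary mouth 1a, anterior dorsal 2 or anterior dorsal 3.

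In primary mouth against ventral tissue, 5 of 29 members were higher (4.42% of all probe sets were), namely ncam1.L, ncam1.S, rgma.L, sema3a.L and 1 slit1.S probe set, and 2 were lower (10.1%), epha2.L and ntn5.L. The median difference was 0.093 for the members and 0.056 for all probe sets. A batch term gave 8 higher and 3 lower, with larger shares of all probe sets too (8.76% and 13.8%). The high-ratio batch alone gave 1 and 0 (2.31% and 5.28% of all), and the low-ratio batch alone 4 and 2 (4.01% and 8.61%). Leaving out primary mouth 2, ventral 2 or ventral 3 left 3 higher members. The lower members were 0 without primary mouth 1a, ventral 2 or ventral 3, and 1 without primary mouth 2 or 3 or anterior dorsal 2 or 3.

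In anterior dorsal against ventral tissue, 7 of 29 members were higher (10.5% of all probe sets were) and 1 was lower (14.1%). The higher ones were both ncam1 copies, both slit1.S and both neo1.L probe sets and rgma.L, and the lower one was robo1.L. The median difference was 0.069 for the members and 0.044 for all probe sets. A batch term gave 7 higher and 3 lower (17.7% and 19.1% of all). The high-ratio batch alone gave 6 and 0 (4.46% and 5.96%), and the low-ratio batch alone 7 and 1 (13.9% and 16.2%). Without ventral 3 there were 6 higher members, and without anterior dorsal 1 or 2 or ventral 2 there were 0 lower ones.

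Across comparisons, which share arrays, 4 member probe sets were higher in the anterior dorsal tissue than in both others (3.93% of all probe sets were), namely ncam1.L, rgma.L and both of slit1.S. The 4 that were lower in ventral tissue than in both others (2.54% of all were) were both ncam1 copies, rgma.L and 1 of slit1.S. For primary mouth 0 members were higher than in both others (1.16% of all were) and ntn5.L was lower (0.659%). No member was lower in the anterior dorsal tissue than in both others (3.11% of all were), and 0 were higher in ventral tissue than in both others (8.00% of all were). Among the 29 there were 9 whose primary mouth arrays all lay below the anterior dorsal ones (13.2% of all probe sets did) and 2 all above (13.0%). Against ventral tissue the primary mouth arrays lay all above for 7 members (14.1%) and all below for 2 (15.8%). Anterior dorsal arrays lay all above the ventral ones for 9 members (20.9%) and all below for 3 (21.2%).

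The proteins that carry guidance signals to actin and microtubules, most of them cytoplasmic, were described from a list of 84 genes, of which 48 were annotated, with 55 tested probe sets. Between primary mouth and anterior dorsal tissue 2 were higher and 7 lower (4.68% and 4.87% of all probe sets were). Between primary mouth and ventral tissue 7 were higher and 2 lower (4.42% and 10.1% of all), and between anterior dorsal and ventral tissue 10 were higher and 7 lower (10.5% and 14.1%). The median differences were -0.13, -0.010 and -0.032 in that order. The collapsin response mediator genes, whose proteins bind tubulin and act downstream of Sema3A, led. The difference of primary mouth from anterior dorsal tissue was -2.44 ± 0.23 for dpysl3.S, -2.33 ± 0.21 for dpysl3.L and -2.22 ± 0.21 for dpysl2.L, with adjusted p of 3.19e-05 to 3.67e-05. Between anterior dorsal and ventral tissue the same genes differed by 3.62 ± 0.23, 3.97 ± 0.21 and 3.01 ± 0.21 (adjusted p = 2.16e-07 to 8.81e-07). The chemokine receptor gene cxcr4.L followed, with -2.13 ± 0.30 and 3.15 ± 0.30 (adjusted p = 0.000649 and 1.17e-05), a membrane receptor rather than a cytoplasmic protein. Its homeolog cxcr4.S averaged 789 in primary mouth, 791 in the anterior dorsal and 796 in ventral tissue and passed nowhere (adjusted p = 0.967 to 0.997). The neural marker lists above had the same order between these pairs of tissues, and their part in the mediator differences was not tested.

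Primary mouth exceeded anterior dorsal tissue on 2 of these 55 probe sets. One of them was pak1.S, a kinase gene of actin control, with means of 193.5 in primary mouth and 42.7 in the anterior dorsal tissue (1.82 ± 0.27, limma adjusted p = 0.000746). In ventral tissue pak1.S averaged 126, and primary mouth did not pass against it (0.53, adjusted p = 0.216). The anterior dorsal tissue was lower than ventral tissue too (-1.29, adjusted p = 0.00347). Against ventral tissue, dpysl3.L was higher in primary mouth by 1.77 ± 0.23 and 1.64 ± 0.21 on its 2 probe sets, the Src-family kinase gene fyn.S by 1.28 ± 0.24 and dpysl3.S by 1.18 ± 0.23 (adjusted p = 0.000256 to 0.00373). The actin regulator gene evl.L was lower by -1.39 ± 0.19 on the log2 scale (adjusted p = 0.000368). Its means were 10.4 in primary mouth, 6.99 in the anterior dorsal and 53.1 in ventral tissue, and only the last is above the filter's levels. It could hardly pass the filter except by its ventral arrays, so no conclusion was drawn from the direction.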

How the data were processed

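RNA of 9 pooled tissue samples, 3 per tissue, was measured on 1 Affymetrix array each. The deposited values are 1 signal intensity per probe set, computed by the authors with MAS5 per the submitters' processing notes; for its version and settings, nothing is given in the sources used here. The trimmed mean (2% removed at each end) was 150 on every array, so this scaling was kept. Symbols came from the platform annotation, and 48 of the 50 members matched the RefSeq table of Xenopus_laevis_v10.1 by gene ID, with no change of symbol. No sequences or coordinates were used here. Probe sets may read both homeologs.

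Signals were taken as log2(signal + 16). The 120 control probe sets were left out, and testing required at least 3 arrays above their 40th percentile. Tissue means were estimated in a single linear model over the 9 arrays (limma 3.58.1, R 4.3.3; lmFit, eBayes with a variance trend, 6 residual degrees of freedom), two-sided, adjusted over all 10011 probe sets. The fit was tested on simulated data. The number of arrays limits the precision. Members and gene lists were chosen with earlier results of these data known. Members called in any comparison were named by family with their arrays, the others with their means, and of the mediator list up to 4 genes per comparison; pak1.S and the marker genes given as examples were chosen with their values in view. One gene of that list is not reported here. Alternatives covered the pseudocount, filter, normalization, variance trend, batch, replicate block, single arrays and the choice of probe sets.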

Additional observations from a re-analysis of the deposited data

How the results depend on the processing

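Of 20 member calls, 10 were kept under every alternative, and the other 10 were lost under at least 1. The 10 kept calls were those of ncam1.L, rgma.L, 1 neo1.L and both slit1.S probe sets and ncam1.S, all but 1 of them in comparisons with anterior dorsal tissue. No call changed direction. Fits within a batch had 1 array in at least 1 tissue. The high-ratio batch alone, whose spread comes from primary mouth only, lost 10 calls, and the low-ratio batch alone lost 3. The causes were not tested. Detection calls were not analysed here, so dim members such as nrp1.L, robo1.L and sema3a.L are the least certain. The replicate numbers were not taken to pair the arrays, since the deviations of primary mouth 2 correlated at -0.234 and -0.123 with those of anterior dorsal 2 and ventral 2 (0.349 to 0.676 in the other pairs), although 8 of 9 arrays were closest to one of their own number. Primary mouth 2 was in the high-ratio batch and anterior dorsal 2 and ventral 2 were in the low-ratio batch. In these pairs a lack of pairing cannot be told apart from the batch. With the replicate block, members higher in primary mouth were 2 against anterior dorsal tissue and 1 against both others, 2 were lower in the anterior dorsal than in ventral tissue, and 1 was higher in ventral tissue than in both others.

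Counts of members that moved by over 1.5 times were these. Without the filter 1 member was higher in primary mouth than in the anterior dorsal tissue, 2 were lower in the anterior dorsal than in ventral tissue, and 1 was lower in the anterior dorsal tissue than in both others, each time with nrp1.L added. With the 60th percentile as the filter 0 were lower in the anterior dorsal than in ventral tissue, as robo1.L was no longer tested. Under quantile normalization 0 were lower in primary mouth than in both others, and with only the 2 tissues in the fit 1 was lower in primary mouth than in ventral tissue. With the batch as a term 1 member was higher in primary mouth than in the anterior dorsal tissue, 8 were higher in primary mouth than in ventral tissue, 3 were lower in the anterior dorsal than in ventral tissue, 1 was lower in the anterior dorsal tissue than in both others, and 1 was higher in ventral tissue than in both others. Within the high-ratio batch 1 was higher and 0 lower in primary mouth than in ventral tissue, 0 were lower in the anterior dorsal than in ventral tissue, 0 were lower in primary mouth than in both others, and 1 was lower in ventral tissue than in both others. Within the low-ratio batch 1 was higher in ventral tissue than in both others.

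The members' median difference between primary mouth and anterior dorsal tissue (-0.29) was -0.19 with a pseudocount of 64, -0.18 without the filter, -0.22 with a batch term, -0.13 and -0.21 within the high-ratio and low-ratio batches, and -0.22 with 1 probe set per symbol. That between primary mouth and ventral tissue (0.093) was 0.25 with the stricter filter and 0.21 and 0.018 within those batches. That between anterior dorsal and ventral tissue (0.069) was -0.020 within the high-ratio batch, a change of sign, and 0.17 within the low-ratio one. 

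In fits that left out 1 array, members lower in primary mouth than in the anterior dorsal tissue were 3 to 6, those higher and lower than in ventral tissue 3 to 5 and 0 to 2, and those lower than in both others 0 to 1. Members lower in the anterior dorsal than in ventral tissue were 0 to 1, those higher in ventral tissue than in both others 0 to 1, those higher in the anterior dorsal tissue than in both others 3 to 5, and those lower in ventral tissue than in both others 3 to 5. The medians were -0.40 to -0.19, 0.047 to 0.18 and 0.042 to 0.18. Chosen after seeing the data, leaving out the 4 A1 probe sets made from the same sequence as an S1 probe set (dcc.S, epha8.L, l1cam.S and ntn1.L) changed no count, since none passed the filter.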

Other observations

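Markers of neural crest, whose migration Eph receptors, semaphorins and Slits guide, had no single order across the tissues. For example, pax3.S averaged 156 in primary mouth, 794 in the anterior dorsal and 19.9 in ventral tissue, the order of ncam1. A dimmer pax3.L probe set had that order too (22.5, 92.9 and 7.17). Brighter pax3.L probe sets, with means of 756, 620 and 713 and of 896, 666 and 890, were lowest in the anterior dorsal and passed nowhere. In the same order of tissues hand2.S averaged 20.4, 4.98 and 195. Of 18 tested probe sets of these markers 5 were higher and 2 lower in primary mouth than in the anterior dorsal tissue (4.68% and 4.87% of all probe sets were). Against ventral tissue 6 were higher and 4 lower in primary mouth (4.42% and 10.1% of all). In the anterior dorsal 4 were higher and 7 lower than in ventral tissue (10.5% and 14.1% of all). The summed signal of the neural crest markers over 30 probe sets was 3822 to 6386 in primary mouth, with array 1a on top. It was 3564 to 4207 in the anterior dorsal and 4088 to 4456 in ventral arrays.

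Muscle and heart markers were lower in primary mouth than in ventral tissue on 15 of 17 tested probe sets (10.1% of all were) and higher on 1 (4.42%). Their sums were 1044 to 1249 in primary mouth, 604 to 627 in the anterior dorsal and 3358 to 3739 in ventral arrays. Epidermis markers were higher in primary mouth than in ventral tissue on 1 of 25 tested probe sets (4.42% of all were) and lower on 5 (10.1%), and 19 did not pass. They were higher in the anterior dorsal than in ventral tissue on 1 (10.5%) and lower on 12 (14.1%). Members called higher in ventral tissue were epha2.L and ntn5.L against primary mouth and robo1.L against anterior dorsal tissue. Both of these comparisons differed on most probe sets of muscle and heart, of cement gland, and of endothelium and blood markers, and on a smaller share of the epidermis ones. Between anterior dorsal and ventral tissue ntn5.L did not pass, with means of 212 and 204. The part of the markers was not tested. Among members below the filter, the second robo3.S probe set read 17.9, 25.3 and 24.4 in primary mouth, 31.9, 28.04 and 30.9 in the anterior dorsal and 17.6, 14.9 and 14.4 in ventral arrays. When every probe set was tested it was higher in the anterior dorsal than in ventral tissue by 0.55 ± 0.15 (limma adjusted p = 0.0214).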
